A study of Sus scrofa with 48 samples.

Results

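The translation initiation factors (eIF) and elongation factors (eEF) were examined in the longissimus muscle of 48 growing pigs from 2 lines selected in opposite directions for residual feed intake (RFI). Their probes were taken from the array by name, as spots whose gene name, or a symbol in brackets in the description, begins with EIF or EEF and a digit. This gave 152 spots, and 148 of these probes, with 61 gene symbols, exceeded background clearly on 12 arrays or more, the filter used throughout. The same filter kept 42125 of the 60305 distinct probes of the array. It removed 1 probe each of EIF2C2, EIF2C4, EIF2S1 and EIF4H, all of which had another probe that was kept. All pigs were Large White barrows with free access to feed, and they made 4 groups of 12: the low RFI line (RFIneg) and the high RFI line (RFIpl), each fed a high fat, high fiber (HF) or a low fat, low fiber (LF) feed. RFI is the feed a pig eats beyond what its growth and maintenance predict, so that low RFI pigs are the more efficient ones. The ages of the pigs are not given in the sources used here, and line stands for all that separates the selected stocks.

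Translation of an mRNA begins when the small ribosomal subunit, held by eIF1, eIF1A, eIF3 and the initiator tRNA brought by eIF2, is recruited to the capped end of the message by the eIF4 group. EIF4E binds the cap, EIF4A unwinds the leader, EIF4B and EIF4H assist it, EIF4G joins the parts, and the EIF4E-binding proteins hold EIF4E back until the mTORC1 kinase phosphorylates them. EIF2B recharges eIF2 with GTP, and the EIF2AK kinases block that step under stress. EIF5 and EIF5B complete the joining of the subunits, after which eEF1 delivers aminoacyl-tRNA to the ribosome, eEF2 moves it along the message, and EEF2K inhibits eEF2. Muscle fibres use EEF1A2 as their adult form of eEF1A. Protein turnover is a large part of the energy cost of muscle, which is why these factors are of interest in pigs that differ in feed efficiency.

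Each value is the log2 of the background-subtracted spot signal minus the mean of its array over the tested probes, and it is called a level. The line difference is the level of the high RFI line minus that of the low RFI line, averaged over the diets, with the standard error (SE) of limma's moderated test, and a probe is called when its Benjamini-Hochberg adjusted p over all 42125 tested probes is under 0.05. Levels of different probes are not comparable with each other, because each probe has its own brightness. Muscle was sampled whole, so that fewer cells of a type and less RNA per cell cannot be told apart. The 6 slides carried 2 arrays of every group, the median processed signal of an array ranged from 52.8 to 107.9, and the number of arrays limits the precision.

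The probes are 60 bases long, and 137 of the 148 were well above background on all 48 arrays. The factors with several probes allow a difference to be read more than once along a transcript. EEF1A1 has 21 probes, EIF3E has 16 and EIF4A2 has 15, whereas 31 symbols rest on a single probe. The first 30 bases are printed for 4 of the 5 probes that were called on both diets, since these carry the clearest differences described further on.
EIF3F, probe O12226: agaccatgctcaacagcaacatcaacgacc
EIF3K, probe O10229: tttgaagactccgtccgcaaatttatctgc
EEF1G, probe A_72_P087331: aagaatgcctttgccagtgtcattctcttt
EEF1B2, probe O8750: aacagatatgctggaggagcagatcactgc

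Probes of one gene are not independent readings when they lie on the same stretch. Of the 21 EEF1A1 probes, 8 share at least 30 bases with another, and the following 3 start at bases 1443, 1446 and 1453 of the transcript as the array numbers it. Capitals mark the 15 bases that the printed stretches have in common.
EEF1A1, probe A_72_P729083: cagaaggctaAATGAATATTATCCCcaata
EEF1A1, probe A_72_P729375: aaggctaAATGAATATTATCCCaatacctg
EEF1A1, probe A_72_P724788: AATGAATATTATCCCcaatacctgccaccc
A pair of EIF4A2 probes starts at bases 679 and 683, and its printed stretches have the 18 bases in capitals in common. Right after the capitals, A_72_P576649 lacks a base that the other has, as A_72_P729375 does above.
EIF4A2, probe A_72_P576649: cacaATGCCAACGGATGTATTGaagtgacc
EIF4A2, probe A_72_P581592: ATGCCAACGGATGTATTGgaagtgaccaaa
These neighbours gave like differences, of -0.24, -0.25 and -0.25 for the EEF1A1 probes and of -0.17 and -0.18 for the EIF4A2 probes.

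Between the lines, 30 of the 148 factor probes were called, and all 30 were lower in high RFI pigs. That is 20.3% of the factor probes, beside 9.85% of all tested probes called lower, 6.57% called higher and 16.4% called in either direction. The 30 probes represent 20 of the 61 symbols. The differences were small, since the largest was -0.36 on the log2 scale, which is a level 1.28-fold higher in the low RFI line. The median line difference was -0.127 over the factor probes, compared with -0.0293 over all tested probes, and 119 of the 148 factor probes had a negative difference. Of the called probes, 26 had the same sign on each of the 6 slides, and all 30 were negative on each scan day. Slides and days hold the same pigs on which the probes were called, so that such agreement is given in part by the call. Of the 30, 9 were called under each of 10 other ways of processing the values. The probes called under each of these were those of EEF1D, EIF3F, EIF3K and EIF4B, 1 each of EEF1G, EIF1AX and EIF3H, and 2 of EIF4A2.

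**Figure D1:**
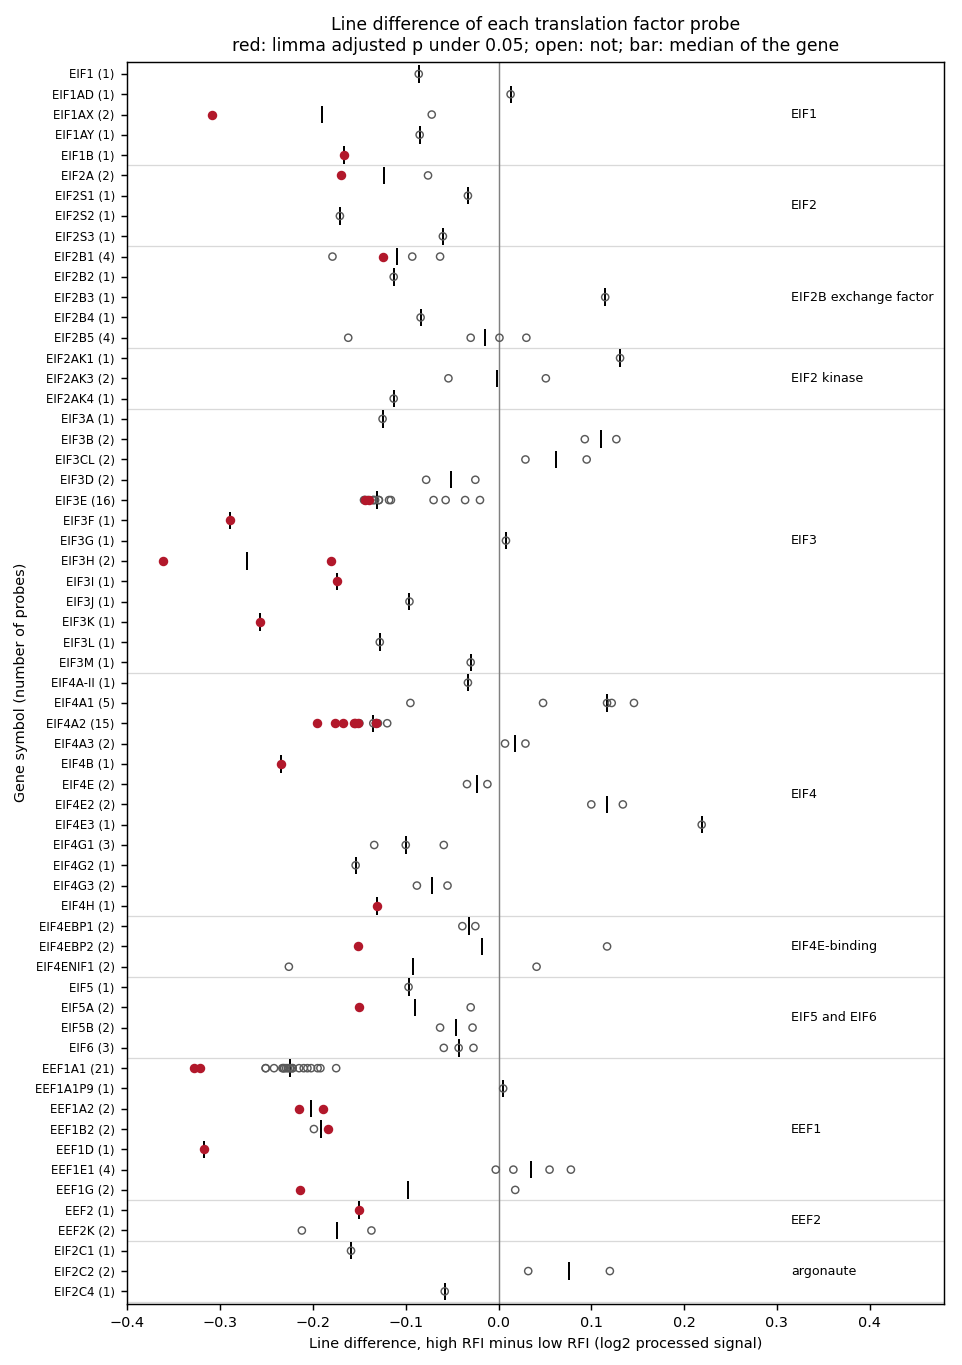
Line difference (high RFI minus low RFI, log2) of each of the 148 factor probes, 1 row per gene symbol, grouped by complex. Filled red points are the 30 called probes, which all lie left of 0, open points were not called, and the bar is the median of the gene.

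The probe of EEF1D, the delta subunit of the exchange factor that recharges eEF1A with GTP, had the smallest adjusted p. Under LF, its level spanned 8.57 to 8.95 (median 8.68) in the low RFI group and 8.17 to 8.64 (median 8.31) in the high RFI group. Under HF, it spanned 8.22 to 8.95 (median 8.63) in the low RFI group and 8.13 to 8.58 (median 8.39) in the high RFI group. The groups overlapped on both diets, but under LF 10 of 12 high RFI pigs lay below the lowest low RFI pig, and under HF 9 of 12 low RFI pigs lay above the highest high RFI pig. The line difference was -0.32 (SE 0.05, limma adjusted p = 9.18e-06), and none of the 24 high RFI pigs reached the mean of the low RFI line.

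EIF3F and EIF3K, both subunits of the eIF3 scaffold on the small ribosomal subunit, came next. Under LF, the EIF3F level spanned 5.83 to 6.42 (median 6.23) in low RFI pigs against 5.68 to 6.16 (median 5.94) in the other line. Under HF, the spans were 5.89 to 6.65 (median 6.23) against 5.62 to 6.04 (median 5.94). All 12 high RFI pigs of each diet lay below the median of the low RFI pigs on that diet. The line difference of EIF3F was -0.29 (SE 0.05, limma adjusted p = 7.88e-05). For EIF3K under LF, low RFI pigs spanned 5.90 to 6.31 (median 6.21) against 5.70 to 6.11 (median 5.90), and 11 of 12 exceeded the highest high RFI pig. Under HF, they spanned 5.76 to 6.39 (median 6.18) against 5.64 to 6.15 (median 5.92), and 7 of 12 did so. The line difference of EIF3K was -0.26 (SE 0.05, limma adjusted p = 0.000162).

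The remaining pair called on both diets belongs, like EEF1D, to the eEF1B exchange complex. For EEF1G, the gamma subunit, the level of probe A_72_P087331 under LF was 7.46 to 7.94 (median 7.72) in low RFI pigs against 7.20 to 7.68 (median 7.55). Under HF it was 7.42 to 7.97 (median 7.62) against 7.33 to 7.70 (median 7.44). The lines overlapped on both diets, yet none of the 24 high RFI pigs reached the low RFI mean, and the line difference was -0.21 (SE 0.04, limma adjusted p = 0.000546). For EEF1B2, which carries the exchange activity, the level of probe O8750 under LF was 8.36 to 8.67 (median 8.49) in low RFI pigs against 8.13 to 8.51 (median 8.28), and under HF it was 8.18 to 8.72 (median 8.55) against 8.10 to 8.47 (median 8.34). Its line difference was -0.18 (SE 0.04, limma adjusted p = 0.000849), and 1 of the 24 high RFI pigs exceeded the low RFI mean. A single low RFI pig of the HF group gave the lowest value of its group for EEF1D, EEF1G and EEF1B2, and a single one of the LF group did so for these and for EIF3K.

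**Figure D2:**
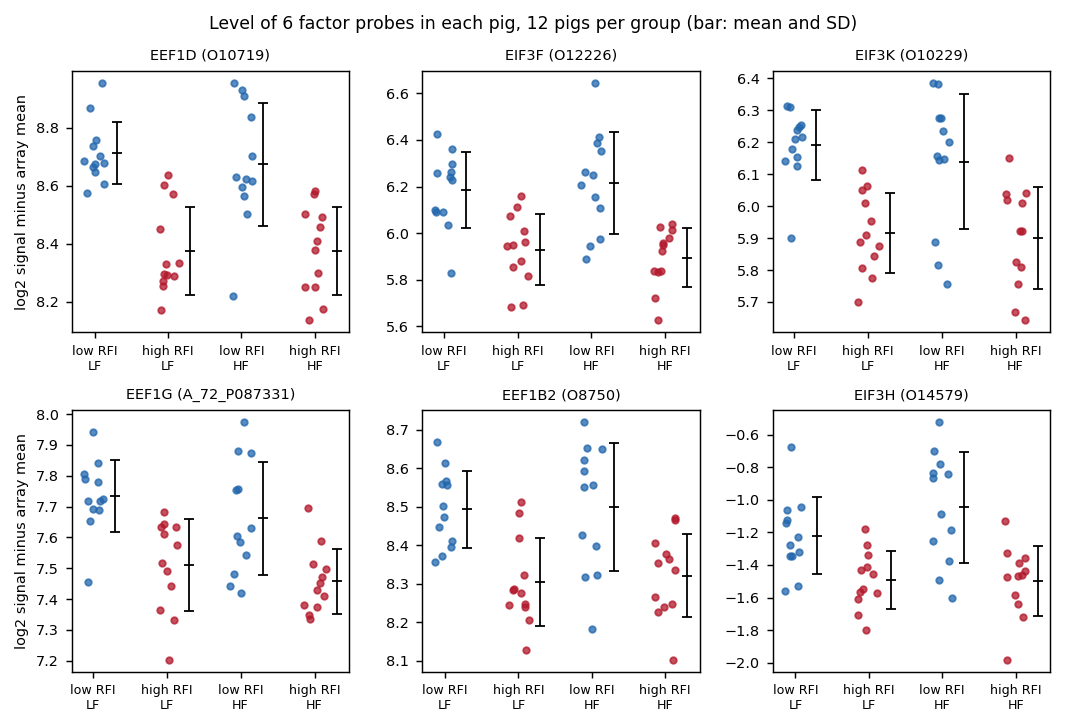
Level (log2 signal minus the array mean) in each pig for the 5 probes called on both diets and for EIF3H probe O14579, with 12 pigs in each line and diet group. Black bars are the group mean and SD. High RFI pigs (red) are centred lower than low RFI pigs (blue) on both diets, with overlap in every panel.

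The eEF1 group had 33 probes of 7 symbols, of which 7 probes of 5 symbols were called, all lower in the high RFI line. Over all tested probes the share called lower was 9.85%, with 27.6% between levels of 6 and 8 and 42.4% above 8. Both probes of EEF1A2, the muscle form, were called, with differences of -0.19 (SE 0.05) and -0.22 (SE 0.08). The former spanned 9.35 to 9.77 (median 9.50) in low RFI pigs against 9.08 to 9.65 (median 9.31) under LF, and 9.25 to 9.78 (median 9.48) against 9.02 to 9.58 (median 9.35) under HF, with limma adjusted p = 0.00513. The latter had a limma adjusted p of 0.0461 and was called under 3 of the 10 other ways of processing. EEF1E1, which is a scaffold protein of the tRNA synthetase complex in spite of its name, had 4 probes with differences from -0.003 to 0.078, and none was called. The probe named for the pseudogene EEF1A1P9 had a difference of 0.005 (SE 0.07). The other EEF1B2 probe gave -0.20 with an SE of 0.08, and it was not called (limma adjusted p = 0.0683).

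The second EEF1G probe, which is far dimmer, with a mean level of -2.2 compared with 7.59, did not share the difference of the first. Under LF, its level spanned -2.74 to -1.84 (median -2.08) in low RFI pigs against -2.78 to -2.02 (median -2.29). Under HF, it spanned -2.71 to -1.97 (median -2.21) against -2.86 to -1.39 (median -2.09). The line difference was 0.02 (SE 0.08, limma adjusted p = 0.912), made up of 0.18 under HF and -0.14 under LF. The start of this probe is shown for comparison with that of A_72_P087331, and which transcript form either detects was not tested.
EEF1G, probe O13569: tctccccagggagggacaagcaaaagactg

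EEF2, the translocase, had a single probe, with a level of 4.74 to 5.36 (median 4.91) in low RFI pigs against 4.57 to 5.13 (median 4.79) under LF, and 4.66 to 5.41 (median 4.94) against 4.60 to 5.05 (median 4.84) under HF. Its difference was -0.15 (SE 0.05, limma adjusted p = 0.033), with -0.08 on scan day 1 and -0.22 on day 2, and it was called under 6 of the 10 other ways of processing. EEF2K, the kinase that inhibits EEF2, had differences of -0.21 (SE 0.08, limma adjusted p = 0.0766) and -0.14 (SE 0.09), neither of which passed the threshold.

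EEF1A1, the form of eEF1A found in most tissues, varied more among pigs than the other factors with many probes. All 21 probes had a negative difference, from -0.33 to -0.17 with a median of -0.23, but only 2 were called, with adjusted p between 0.0184 and 0.280 over the probes (limma). The standard deviation among pigs of a group was 0.35 for the median EEF1A1 probe, compared with 0.171 for EIF4A2, 0.185 for EIF3E and 0.205 for the median factor probe. Averaged over its 21 probes, the level was 6.11 to 7.04 (median 6.65) in low RFI pigs and 5.49 to 7.09 (median 6.47) in high RFI pigs. The high RFI line thus held both the lowest and the highest pig, and 7 of its 24 pigs lay below the lowest low RFI pig. The difference was also unequal between the 2 scan days, each of which covered 6 pigs of every group. Over the 21 probes it ran from -0.082 to 0.009 (median -0.031) on day 1 and from -0.588 to -0.302 (median -0.428) on day 2, so that it was near 0 on day 1. For the called probes it was -0.06 and -0.08 on day 1 and -0.59 and -0.57 on day 2. The gap between the days was not tested.

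EIF4A2, one of the eIF4A helicases and the one with many probes here, showed a smaller but more uniform difference. All 15 probes were negative, from -0.20 to -0.12, and 7 were called. Averaged over the probes, the level was 5.36 to 5.96 (median 5.68) in low RFI and 5.21 to 6.03 (median 5.54) in high RFI pigs. The median difference over the probes was -0.151 on scan day 1 and -0.143 on day 2. The probe with the smallest adjusted p, at base 512, had levels of 3.03 to 3.45 (median 3.22) in low RFI pigs against 2.66 to 3.49 (median 3.06) under LF. Under HF they were 2.92 to 3.56 (median 3.30) against 2.91 to 3.37 (median 3.1), so that the groups overlapped, and its line difference was -0.20 (SE 0.05, limma adjusted p = 0.00422). EIF3E, an eIF3 subunit, had 16 negative differences, from -0.14 to -0.02, of which 2 were called. The 16 probes hold 14 distinct sequences, and 10 of them share at least 30 bases with another. All 16 were negative on scan day 1 (median -0.144) and 13 on day 2 (median -0.114, up to 0.093). The 2 EIF3E probes nearest the start of the transcript, at bases 227 and 361, had the smallest differences among those with a known position. They were also the dimmest of these, with mean levels of 3.69 and 3.48. What part position or level has in this was not tested.

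**Figure D3:**
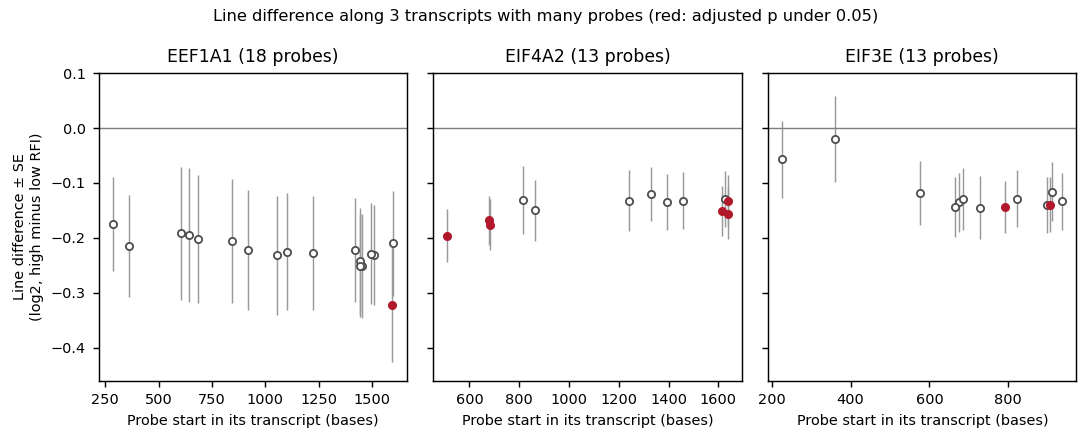
Line difference (log2, high RFI minus low RFI, with SE) against the start of the probe in its transcript, for the 18 EEF1A1, 13 EIF4A2 and 13 EIF3E probes with a start given on the array. Filled red points were called. All points lie under 0, at all positions, and the EEF1A1 probes have the longest error bars.

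Among the factors that bind the small subunit first, EIF1AX, which keeps the scanning ribosome open, had a called probe with levels of 3.63 to 4.27 (median 3.96) in low RFI pigs against 3.04 to 4.10 (median 3.77) under LF, and of 3.72 to 4.20 (median 3.97) against 3.16 to 4.03 (median 3.64) under HF. Its difference was -0.31 (SE 0.07, limma adjusted p = 0.00237), and the SD among high RFI pigs, 0.33 and 0.29, exceeded that among low RFI pigs, 0.18 and 0.14. The other EIF1AX probe, O9436, gave -0.07. A further probe, named LOC100522912 on the array and EIF1AX by RefSeq, gave -0.08 (SE 0.04, limma adjusted p = 0.188), so that the difference rests on the called probe. That probe starts at base 2938 of its transcript, while no start is given for O9436, and both are shown because they differ in result.
EIF1AX, probe A_72_P350693: ccaatagagtgtaaatatgttgtattacta
EIF1AX, probe O9436: gcagatgatgatgaagatattgatgatatc

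EIF1B, a close relative of the start codon guardian EIF1, had a single probe, with a difference of -0.17 (SE 0.05, limma adjusted p = 0.0203). It was -0.26 under LF (adjusted p = 0.0371 by limma) and -0.07 under HF (adjusted p = 0.581 by limma), and the test of this gap, the interaction, gave an unadjusted p of 0.0655. The array also holds 7 probes under the name LOC414417, which the RefSeq table gives as EIF1B. All 7 were negative, from -0.298 to -0.113, and 6 were called. Of the 7, 5 overlap with the EIF1B probe, so that they read the same region, and capitals mark what the printed starts hold of the 28 bases that the following 3 whole probes have in common.
EIF1B, probe A_72_P039066: atctgcatgattacagaaaacatggGGTAT
LOC414417, probe A_72_P590269: gattacagaaaacatggGGTATGTAGGCTA
LOC414417, probe A_72_P302699: GGTATGTAGGCTAGTAACACATAAGAAAat

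EIF1 itself gave -0.09 (SE 0.05, limma adjusted p = 0.239), EIF1AD 0.01 and the probe named EIF1AY -0.085, with no call. The eIF2 subunits that carry the initiator tRNA were not called: EIF2S1 gave -0.03, EIF2S2 -0.17 and EIF2S3 -0.06, with limma adjusted p of 0.631, 0.0965 and 0.582. EIF2A, a separate tRNA-binding protein in spite of its name, had 1 of 2 probes called, at -0.17 (SE 0.05). In the exchange factor EIF2B, 1 of 11 probes was called, beside 9.85% of all tested probes called lower. It was an EIF2B1 probe at -0.125 (SE 0.04), and the other 3 EIF2B1 probes were also negative. The remaining EIF2B probes gave -0.11 for EIF2B2, 0.115 for EIF2B3, -0.08 for EIF2B4 and -0.16 to 0.03 for EIF2B5. The kinases of eIF2 gave 0.13 for EIF2AK1, 0.05 and -0.05 for EIF2AK3 and -0.11 for EIF2AK4, and none was called. The EIF2AK1 probe and both EIF2AK3 probes were dim, with mean levels of -3.32, -2.76 and -3.13. They were well above background on 44, 47 and 44 arrays. A brighter probe that RefSeq assigns to EIF2AK1, with a mean level of 2.91, gave 0.17 (SE 0.09, limma adjusted p = 0.168). No probe under the names EIF2AK2 or EIF5A2 was among those kept.

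The eIF3 complex had 32 probes of 13 symbols, of which 7 probes were called, all lower in the high RFI line, from EIF3E, EIF3F, EIF3H, EIF3I and EIF3K. Over all tested probes the share called lower was 9.85%, with 15.5% between levels of 4 and 6 and 27.6% between 6 and 8. Both EIF3H probes were called. Probe O14579 had levels of -1.56 to -0.68 (median -1.25) in low RFI pigs against -1.80 to -1.18 (median -1.50) under LF, and of -1.60 to -0.52 (median -0.97) against -1.98 to -1.13 (median -1.47) under HF. The groups overlapped on both diets, and its difference of -0.36 (SE 0.07, limma adjusted p = 0.000477) was the largest among the factor probes. The other EIF3H probe, A_72_P003181, gave -0.18 (SE 0.05, limma adjusted p = 0.00931). EIF3I gave -0.17 (SE 0.06, limma adjusted p = 0.0412), with this sign on 5 of 6 slides, and -0.16 without the brightest array (limma adjusted p = 0.0622).

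EIF3B was the exception within eIF3. This scaffold subunit had levels of 5.43 to 5.90 (median 5.58) in low RFI pigs against 5.35 to 6.06 (median 5.77) under LF, and of 5.31 to 5.79 (median 5.53) against 5.45 to 5.98 (median 5.63) under HF. The difference of this probe was 0.13 (SE 0.05, limma adjusted p = 0.0583), just outside the threshold, with the same sign on all 6 slides. It was called as higher in the high RFI line under 8 of the 10 other ways of processing, and it was the only factor probe called in that direction in any of them. The other EIF3B probe gave 0.09 (SE 0.07), and the pair of EIF3CL probes gave 0.03 and 0.095. Not called either were EIF3A at -0.125, EIF3L at -0.13, EIF3J at -0.10, EIF3D at -0.08 and -0.025, EIF3M at -0.03 and EIF3G at 0.008.

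In the cap-binding group, 9 of 36 probes were called, from EIF4A2, EIF4B and EIF4H, again all lower in the high RFI line. The share of all tested probes called lower was 9.85%, with 15.5% between levels of 4 and 6 and 27.6% between 6 and 8. EIF4B had levels of 2.87 to 3.39 (median 3.11) in low RFI pigs against 2.48 to 3.37 (median 2.88) under LF, and of 2.51 to 3.44 (median 3.14) against 2.54 to 3.14 (median 2.88) under HF. Its difference was -0.23 (SE 0.06, limma adjusted p = 0.00683), and that of EIF4H was -0.13 (SE 0.04, limma adjusted p = 0.0149). The cap-binding protein EIF4E gave -0.01 and -0.03 in its 2 probes (limma adjusted p = 0.921 and 0.728). Its relatives EIF4E2 and EIF4E3 had positive differences that were not called, of 0.13, 0.10 and 0.22. For EIF4E3 (SE 0.12), the medians under HF were -1.13 in low RFI and -1.08 in high RFI pigs. The highest high RFI pig there was at 1.32, and the SD of that group was 0.72. Under LF the EIF4E3 medians were -1.36 and -1.07 in the same order. The scaffold EIF4G1 gave -0.13, -0.06 and -0.10, EIF4G2 gave -0.15 and EIF4G3 gave -0.055 and -0.09, with no call. A probe that RefSeq assigns to EIF4G2, with a mean level of 6.5 compared with 2.88, gave -0.02 (SE 0.05, limma adjusted p = 0.811). EIF4A1, the helicase most cells use, differed from EIF4A2 in sign: 4 of its 5 probes were positive, from 0.05 to 0.15, the other was -0.095, and none was called. EIF4A3, the helicase of the exon junction complex, gave 0.01 and 0.03, and the probe described as EIF4A-II gave -0.03.

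Of the proteins that hold EIF4E, EIF4EBP1 had 2 probes of identical sequence, with differences of -0.04 and -0.025. EIF4EBP2 had a called probe at -0.15 (SE 0.05, limma adjusted p = 0.0273), with -0.22 under HF (adjusted p = 0.0467 by limma) and -0.08 under LF (adjusted p = 0.591 by limma), and an unadjusted interaction p of 0.173. The other EIF4EBP2 probe gave 0.12 (SE 0.16) but was well above background on only 16 arrays. A further 2 probes that RefSeq assigns to EIF4EBP2 gave 0.05 and 0.02, and neither was called. EIF4ENIF1, a transporter of EIF4E, gave -0.23 and 0.04 with no call. EIF5A, which relieves stalled ribosomes, had a called probe at -0.15 (SE 0.04, limma adjusted p = 0.00713) and one at -0.03. EIF5 gave -0.10, EIF5B -0.06 and -0.03, and the anti-association factor EIF6 -0.06, -0.04 and -0.03, with no call. The 4 probes named EIF2C belong to argonautes, which act in RNA silencing and not in initiation, and none of them was called, with differences from -0.159 to 0.12.

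Within a diet, 7 factor probes were called between the lines under HF and 6 under LF, all lower in the high RFI line. These are 4.73% and 4.05% of the factor probes, where 4.03% and 1.34% of all tested probes were called lower, so that the share under HF is close to that of the array as a whole. The diets used different pigs. The 5 probes called on both were of EEF1D, EIF3F, EIF3K, EEF1G and EEF1B2. The others were EIF3H probe O14579 and EIF4EBP2 under HF, and EIF1B under LF. The share of all tested probes called on both diets is not given here, so that this overlap cannot be set beside it. The sign of the difference was negative on both diets for 104 factor probes (70.3%, beside 42.7% of all tested probes), positive on both for 19 and opposite for 25. All 30 probes called over both diets were negative on each of them. That follows in part from the choice, since they were called on the mean of the diets in the same pigs.

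**Figure D4:**
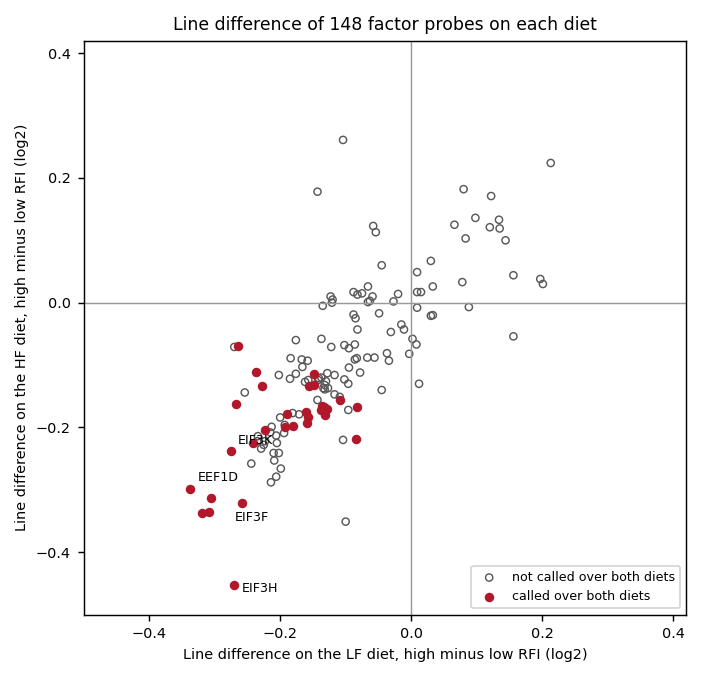
Line difference (log2, high RFI minus low RFI) of each of the 148 factor probes on the HF diet against that on the LF diet, with the 30 probes called over both diets in red. Most points, 104 of 148, lie at the lower left, where the high RFI line is lower on both diets.

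No factor probe was called for the diet itself, where 0.42% of all tested probes were called, or for the interaction of line and diet, where 0% were (limma). At an unadjusted p under 0.05 there were 6 factor probes for diet and 0 for the interaction. Of those 6 for diet, 4 were EIF4A1 probes, with differences (HF minus LF) of -0.258, -0.215, -0.211 and -0.165. The first of them, A_72_P643696, had levels under LF of 1.05 to 1.85 (median 1.35) in low RFI pigs and 1.09 to 1.84 (median 1.46) in high RFI pigs. Under HF its levels were 0.78 to 1.33 (median 1.06) and 0.76 to 1.56 (median 1.21) in the same order (limma adjusted p = 0.0606). The groups overlapped, and this probe passed the threshold when slide was a block in the model (-0.26, SE 0.06, limma adjusted p = 0.0368).

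The size of the line difference moved with the brightness of the probe, among the factors and over the whole array. The median difference of all tested probes was -0.015 for those with a level under 0, -0.05 between 4 and 6, -0.08 between 6 and 8 and -0.11 above 8, and the share called lower was 5.84%, 15.5%, 27.6% and 42.4%. The factor probes were bright, with a median level of 3.69 compared with -0.44 for all tested probes. In the same ranges of level, their medians were -0.01, -0.14, -0.16 and -0.25, and 1 of 26, 5 of 31, 10 of 31 and 6 of 6 were called lower. Between 4 and 6 and between 6 and 8 the shares of factor probes called lower were 16.1% and 32.3%. In the ranges not yet given, 4.55% of 22 factor probes were called lower between 0 and 2, beside 11.5% of all probes, and 21.9% of 32 between 2 and 4, beside 12.8%. Above 8 the 6 called probes belong to EEF1A1, EEF1A2, EEF1B2, EEF1D and EIF5A.

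Quantile normalization, which gives all arrays the same distribution, brought the median difference of all probes above a level of 8 to -0.004. The median over the factor probes was then -0.0768, beside -0.0233 over all tested probes. In either direction, 15 of the 148 factor probes (10.1%) were called, a smaller share than the 14.9% of all tested probes. Of the 30 probes called before, 14 were still called lower. Those of EEF1D (-0.20, limma adjusted p = 0.000257), EIF3F (-0.24), EIF3K (-0.20), EEF1G (-0.12), EIF1AX (-0.29) and EIF4B (-0.215), both EIF3H probes, 3 EIF4A2 probes and those of EIF1B, EIF2A and EIF2B1 were among them. EEF1B2 (-0.07, adjusted p = 0.133 by limma), EIF5A (-0.035), EEF2, EIF4H, EIF3I, EIF4EBP2, EEF1A1, EEF1A2, EIF3E and the other 4 EIF4A2 probes were not, and EIF3B was called higher. What part brightness has in the differences was not tested.

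**Figure D5:**
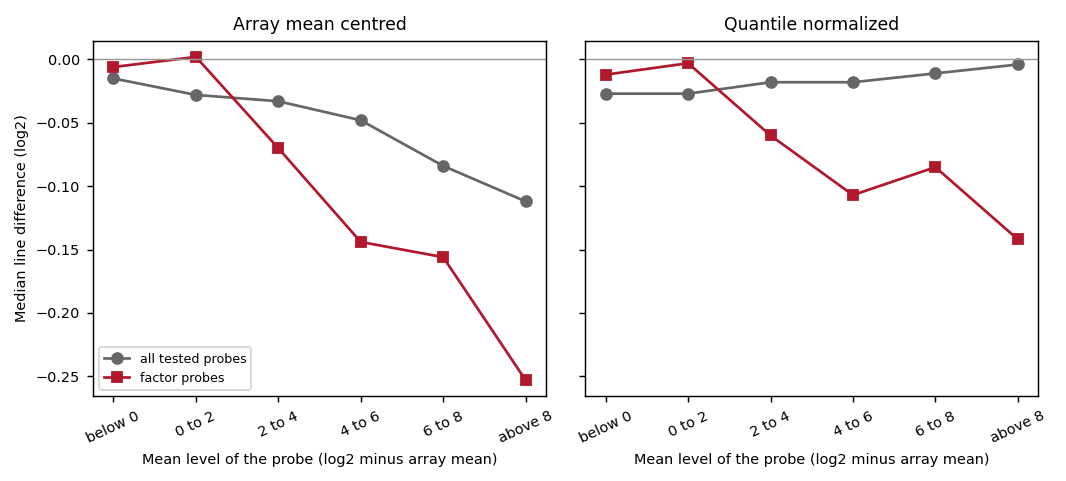
Median line difference (log2, high RFI minus low RFI) of all tested probes (grey) and of the factor probes (red) in 6 ranges of the mean level of the probe, as centred on the array mean (left) and after quantile normalization (right). On the left the grey line goes down throughout, to -0.112 above 8, the red line goes down from the second range on, to -0.253, and on the right the grey line ends at -0.004 and the red line at -0.142.

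With 1 value per symbol, the mean over its probes, 13 of the 61 symbols (21.3%) were called, all lower in the high RFI line, where 14.9% of all 29879 names tested in that way were called in either direction. They were EEF1A2, EEF1B2, EEF1D, EEF2, EIF1AX, EIF1B, EIF3F, EIF3H, EIF3I, EIF3K, EIF4A2, EIF4B and EIF4H. The array names 22 further tested probes by LOC numbers that RefSeq gives as factors, from 7 symbols. Of these, 7 were called, all lower in the high RFI line: 6 of EIF1B and 1 of EIF3A, at -0.13 (SE 0.04, limma adjusted p = 0.0297). The 4 added EIF2S1 probes, 1 of which has the same 60 bases as the EIF2S1 probe of the array, gave differences from -0.040 to -0.014.

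Genes that act beside the factors were described by counts. Of all tested probes, 9.85% were called lower and 6.57% higher. Among 30 probes of regulators at the cap, the poly(A) tail and mTORC1, 6 were called lower and 1 higher in the high RFI line, with a median of -0.05. The lower ones were 3 probes of PAIP1, a partner of the poly(A)-binding protein, at -0.22, -0.22 and -0.17, 2 of the 4 probes of the mTORC1 target RPS6KB1, at -0.16 and -0.18, and 1 of PABPC4. The higher one was 1 of 5 probes of PDCD4, an inhibitor of eIF4A, at 0.32 (SE 0.09, limma adjusted p = 0.0121), while the other PDCD4 probes ranged from -0.06 to 0.02. MTOR gave -0.09 and -0.07. None of 3 termination factor probes was called. Of 13 probes of mitochondrial factors, with a median of 0.04, 1 was called, an MTRF1 probe lower in the high RFI line at -0.21. The other MTRF1 probes ranged from 0.05 to 0.15. Of 285 probes of cytosolic ribosomal proteins, the partners of the factors, 205 (71.9%) were called lower in the high RFI line. Their median was -0.15, and none was called higher. The mean level over this list was 6.5 in low RFI and 6.33 in high RFI pigs. Between levels of 6 and 8, 27.6% of all tested probes were called lower.

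Markers of the sampled cells were described in the same way, beside the 6.57% of all probes called higher and 9.85% called lower. All 10 muscle fibre markers were measured. In the high RFI line 17 of their 72 probes (23.6%), of CKM, MYH2, MYH4, TNNT3 and TTN, were called lower. No probe of ACTA1, MYH1, MYH7, DES or MB was called, and the other TTN probe gave 0.75. The mean level over the list ran from 8.66 to 9.09 in the high RFI line, compared with 8.71 to 9.19 in the low RFI line. Above a level of 8, 42.4% of all tested probes were called lower. Of 25 adipocyte marker probes, 8 were called higher in the high RFI line, and all 8 were of FABP4, a fatty acid carrier, while none of the 17 probes of ADIPOQ, PLIN1, CIDEC and LEP was called. The mean level over the adipocyte list was -0.79 to 1.43, compared with -1.11 to 1.18. Both CD14 probes among 8 immune marker probes and both COL1A1 probes among 11 fibroblast marker probes were called higher, and no endothelial, blood or neural marker was called. The part of these cells in the differences of the factors was not tested.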

How the data were processed

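Longissimus RNA of 48 pigs was hybridised on 1-colour arrays, 1 array per pig. The authors deposited spot intensities from Agilent Feature Extraction 10.7.3.1, per the file headers, with the background subtracted, and a table of log2 values (R 2.10.0, per the labels), which followed the log2 mean spot signal (lowest correlation 0.9999) and whose columns have a median of 0. The study's methods state that spots were filtered on intensity, uniformity, saturation and outliers, that log2 was taken, and that samples were centred on their mean in a later merged table, not used here. Outlier spots were left out, probes were averaged, and the log2 processed signal was centred on the array mean over probes well above background on at least 12 arrays. A linear model of the 4 groups was fitted to each probe (limma 3.58.1, R 4.3.3), and p-values were adjusted over 42125 probes by the method of Benjamini and Hochberg, with a threshold of 0.05. The scripts were tested on simulated data. The genes named were the symbols called between the lines, up to 20 per direction, up to 5 called in another comparison and a list of core factors, and the remaining symbols were named after their values were seen. The members and lists were chosen with earlier results of these data known. Alternatives covered scaling, background, filters, outlier spots, slide, scan day, the deposited table, the brightest array, 1 value per symbol and a variance analysis of the line. The probes under LOC numbers were added after seeing the data. Symbols are those of the array. Sequences are from the array files.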

Additional observations from a re-analysis of the deposited data

How the results depend on the processing

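The 30 calls between the lines became 15 after quantile normalization, 19 with normexp background, 12 without the filter on dim probes, 46 with slide as a block and 13 of 61 with 1 value per symbol. These were 10.1%, 12.8%, 8.11% and 31.1% of the factor probes and 21.3% of the symbols, in that order. Of all probes or names tested, 14.9%, 13.5%, 6.42%, 20% and 14.9% were called in either direction. On the HF diet the 7 calls became 4 after quantile normalization, 3 with normexp, 3 without the filter, 15 with slide as a block and 4 with 1 value per symbol. On the LF diet the 6 calls became 3 with scaling on the 75th percentile, 2 after quantile normalization and 1 without the filter. For the diet, the count of 0 became 1 with slide as a block. The filter changes how many probes are adjusted over, and the cause of the other changes was not tested. Under the remaining alternatives these counts stayed within 1.5 times, among them 31 for the variance analysis of the line and 37 of 170 with the probes under LOC numbers, and the interaction had no call under any alternative. The median line difference ranged from -0.127 to -0.0768. Of 941 values of 95 named probes under the alternatives, 856 kept sign and side of the threshold, 55 lost a call and 20 gained one. Without the brightest array, from the high RFI group under HF, the limma adjusted p rose to 0.0636 for EEF1A2 O12665, 0.0691 for EIF3E A_72_P571584, 0.0622 for EIF3I and 0.0606 for EIF4A2 A_72_P569109, and the other 26 calls stayed. The sign turned, always near 0 and without a call, for EEF1G O13569 (-0.012 with the deposited table, -0.013 without the brightest array), EIF4E A_72_P372848 (0.004 after quantile normalization, 0.029 with normexp, 0.00034 when well above background on all arrays, 0.015 without the brightest array), and, with normexp, EIF2S1 (0.007), EIF4E O1082 (0.001), EIF4EBP2 O13977 (-0.033) and EIF6 A_72_P063701 (0.018). Of the factor probes, 11 were not well above background on all arrays. No paired analysis was possible because every title carries the same replicate number and an animal number of its own.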
